A study of Arabidopsis thaliana with 8 samples.

Results

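Stomatal lineage genes are the genes that start, pace and end the cell divisions that make stomata, the pores of the leaf surface. The 10 described here were chosen by locus identifier from among 33323 gene loci in the table: SPCH, MUTE, FAMA, ICE1, TMM, EPF1, EPF2, STOMAGEN, SDD1 and BASL. All 10 were found, and all passed the filter on low values. RNA was measured in whole wild-type Arabidopsis thaliana seedlings of ecotype Columbia, aged 7 days by their label. There were 4 groups of 2 libraries. CTRL seedlings had no heat. LHS seedlings were kept at 37 °C for 30 h and collected at the end of that heat. LHSR12 and LHSR84 seedlings had the same heat and then spent 12 h or 84 h at 22 °C. The series asks how RNA levels change through a long heat stress and the recovery from it. Neither the hour of harvest nor the age at harvest is given for each group, so heat, age and time of day cannot be told apart.

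In the leaf epidermis, a protodermal cell enters the lineage when the bHLH transcription factor SPCH drives an asymmetric division. The related factors MUTE and FAMA then end those divisions and complete guard cell formation, each paired with ICE1 or its close relative SCRM2. The secreted peptides EPF1 and EPF2 restrain entry and spacing through receptor kinases of the ERECTA family and the receptor-like protein TMM, and a MAP kinase cascade carries that signal to SPCH. STOMAGEN, a peptide of the same family made in the mesophyll, promotes stomata by competing for those receptors. SDD1 is a subtilisin-like protease that limits stomatal number, and BASL marks a pole of the dividing cell. In warm-grown plants the factor PIF4 is known to lower SPCH expression.

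Sequencing depth at gene loci, where whole reads could be worked out (7 libraries), was between 18.9 M and 28.3 M (M, 1e6 reads). It is not known for LHS replicate 1. Values below are scaled reads, that is, read counts divided by a factor for each library. The CTRL libraries differed most from each other, with a median absolute log2 difference of 0.26 over gene loci tested, against 0.17 to 0.18 in the other groups. Nothing in the labels says that the libraries of a group came from separate cultures, so the tests see the spread between libraries, which may be technical. A gene is said to rise or fall when its limma p-value, adjusted over all loci by Benjamini-Hochberg, is below 0.05, and log2 fold changes are on the log2(value + 1) scale.

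At the end of heat, 5 of the 10 genes had fallen against CTRL, namely SDD1, EPF1, SPCH, STOMAGEN and TMM. Of all gene loci tested, 33.2% fell and 34.8% rose in the same comparison. The 10 log2 fold changes ranged from −3.88 (SDD1) to −0.32 (MUTE), with a median of −0.69 beside 0.03 for all gene loci. Whether such a difference reflects fewer lineage cells or less RNA in each cannot be told apart in whole seedlings. After 12 h of recovery, SPCH and EPF2 were lower than in CTRL and SDD1 was higher. The background for that comparison was 21.7% lower and 24.4% higher. After 84 h only FAMA differed from CTRL among the 10, being higher, where 8.94% of gene loci were higher and 5.32% lower. The median over the 10 genes was then −0.0039, beside −0.02 for all gene loci. These 3 comparisons share the CTRL libraries.

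**Figure D1:**
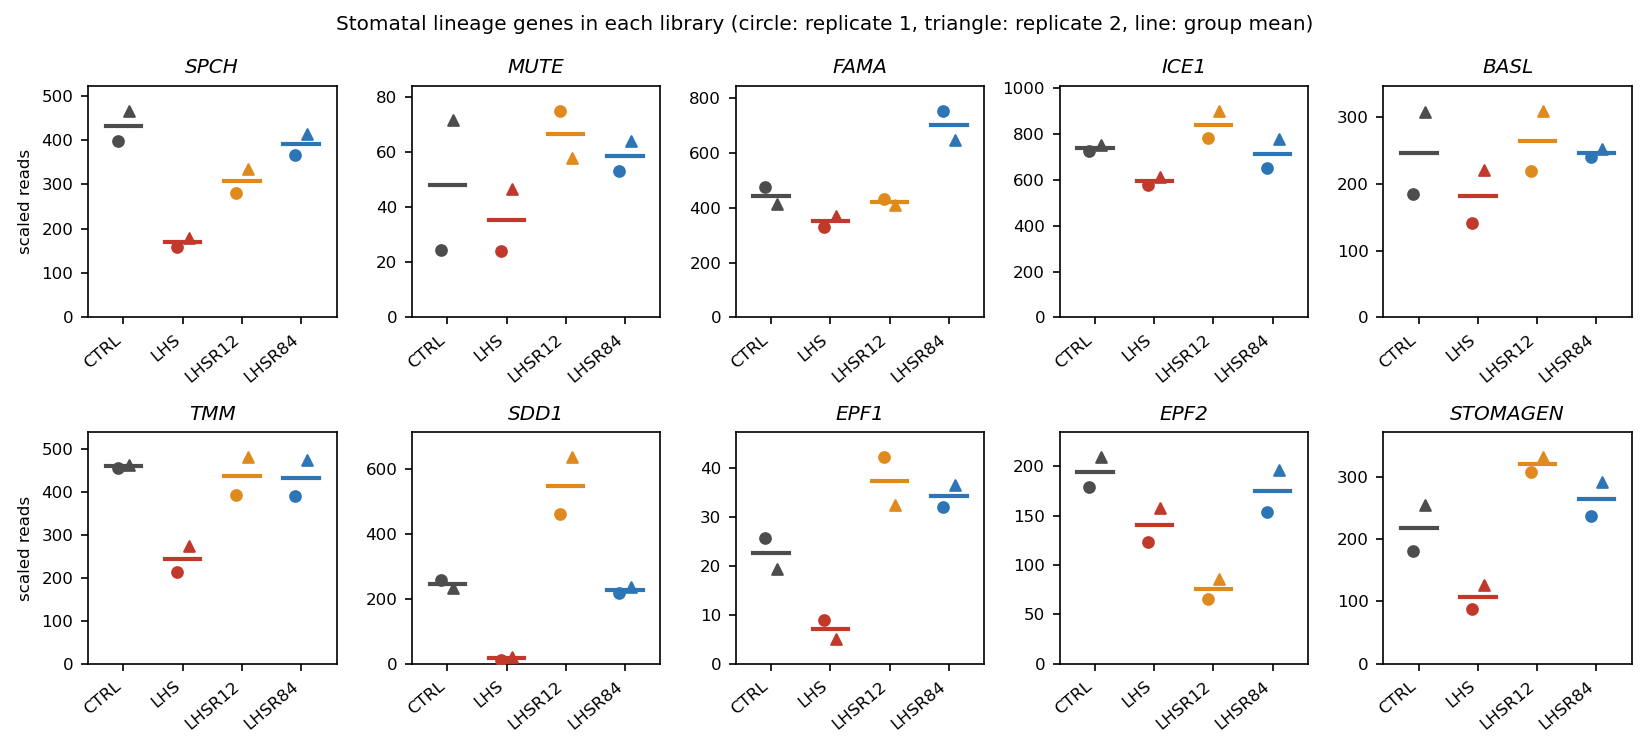
Scaled reads of each gene (vertical axis, linear, from 0) in the 4 groups, with 1 point for each library and a line at the group mean. SDD1 is near the floor in LHS (11.02 and 22.3) and highest in LHSR12, EPF2 is lowest in LHSR12, and FAMA is highest in LHSR84.

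From the end of heat to 12 h of recovery, 6 of the 10 genes rose (SDD1, EPF1, STOMAGEN, SPCH, TMM and ICE1), against 32.3% of gene loci, and EPF2 fell, against 31.6%. The median over the 10 was 0.85, beside 0.01 for all gene loci. Between 12 h and 84 h, EPF2 and FAMA rose and SDD1 fell, where 17.9% of gene loci rose and 19.3% fell. EPF2 and SDD1 therefore moved in opposite directions in both recovery steps.

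SPCH (AT5G53210, chr5:21586219-21589255, minus strand, TAIR10.1), the factor that starts the lineage, had 397 and 466 scaled reads in CTRL, 158 and 179.5 in LHS, 280.4 and 333 in LHSR12, and 366 and 413 in LHSR84. Both heated libraries were lowest, both LHSR12 libraries lay between heat and control, and the LHSR84 and CTRL values overlapped. The fall in LHS was −1.35 on the log2 scale (SE 0.16, adjusted p = 0.000107), and the rise over the first 12 h was 0.86 (SE 0.16, adjusted p = 0.0017). In LHSR12, SPCH was still 0.49 below CTRL (SE 0.16, adjusted p = 0.0354). That last call was lost without CTRL replicate 2 (−0.38, adjusted p = 0.138), without LHSR12 replicate 1 (−0.37, adjusted p = 0.189) or without LHSR12 replicate 2 (−0.61, adjusted p = 0.0513). It was also lost without any LHS or LHSR84 library, at an unchanged fold change and adjusted p of 0.0519 to 0.0548. After 84 h the difference from CTRL was −0.14 (95% interval −0.51 to 0.22).

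MUTE (AT3G06120, chr3:1846442-1848259, plus strand), which ends the asymmetric divisions, had 24.4 and 71.9 scaled reads in CTRL, 24.0 and 46.7 in LHS, 75.1 and 58.0 in LHSR12, and 53.2 and 64.1 in LHSR84. The CTRL libraries stood at 18 and 67 reads and spanned most of the range of the other groups. No comparison passed the test, and the 95% interval of the LHS difference ran from −1.50 to 0.87. In LHSR12 the difference of MUTE from CTRL was 1.4003 without CTRL replicate 2 and −0.12 without CTRL replicate 1.

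FAMA (AT3G24140, chr3:8715118-8718211, minus strand), which completes guard cell identity, had 474 and 415 scaled reads in CTRL, 330.5 and 371 in LHS, 432 and 408 in LHSR12, and 754 and 649 in LHSR84. The LHSR84 libraries lay above all others, and the LHS libraries below all others. The rise against CTRL was 0.66 after 84 h (SE 0.14, adjusted p = 0.0146) and that from 12 h to 84 h was 0.73 (SE 0.14, adjusted p = 0.00377). Without LHSR84 replicate 1 the former was 0.55 and not called (adjusted p = 0.127). In LHS the difference from CTRL was −0.34 (adjusted p = 0.0523). It ran from −0.44, without CTRL replicate 2, to −0.24 over the alternatives run. With a pseudocount of 0.1 (adjusted p = 0.0497) or TMM scaling (adjusted p = 0.0329) it passed in limma. FAMA and SPCH thus returned differently: after 84 h SPCH overlapped CTRL while FAMA was above it. The difference between the 2 genes was not tested.

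ICE1 (AT3G26744, chr3:9832667-9835279, minus strand), the shared partner of the 3 factors and also a regulator of cold tolerance, had 729 and 753 scaled reads in CTRL, 578 and 612 in LHS, 782 and 903 in LHSR12, and 652 and 777 in LHSR84. LHS was lowest without overlap, but the difference of −0.32 from CTRL did not pass (adjusted p = 0.0527). With TMM scaling (adjusted p = 0.0346) or only the 2 groups compared (adjusted p = 0.0433) that difference passed in limma. The rise in the first 12 h was 0.50 (SE 0.13, adjusted p = 0.00833), and it was lost without LHS replicate 1 (0.46, adjusted p = 0.0572) or LHSR12 replicate 2 (0.40, adjusted p = 0.0652). SCRM2, the relative of ICE1, had a wider range, with 2250 and 1994 scaled reads in CTRL, 456 and 515 in LHS, 649 and 791 in LHSR12, and 1528 and 1635 in LHSR84. Its fall in LHS was −2.13 (SE 0.13, adjusted p = 2.80e-06), and in LHSR12 it was still 1.56 below CTRL by size (log2 fold change −1.56, adjusted p = 3.69e-05). The number of ICE1 reads for each SCRM2 read was 0.324 and 0.378 in CTRL, 1.27 and 1.19 in LHS, 1.21 and 1.141 in LHSR12, and 0.427 and 0.475 in LHSR84. Such a ratio needs no scaling between libraries, and only its change between groups is read, since it is not per length. It was high in all 4 libraries of heat and early recovery and low in the other 4.

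BASL (AT5G60880, chr5:24488289-24489836, minus strand), the polarity protein, had 184 and 307 scaled reads in CTRL, 141 and 221 in LHS, 219.9 and 309 in LHSR12, and 239.8 and 252 in LHSR84. The libraries of both recovery groups and of LHS each overlapped those of CTRL, LHS lay below LHSR84 without overlap, and none of the 5 comparisons passed. The 95% interval of the LHS difference was −1.11 to 0.26. POLAR, another polarity gene of the same cells, went from 182 and 188 scaled reads in CTRL to 43.1 and 41.6 in LHS, 78.1 and 91.3 in LHSR12, and 115 and 162 in LHSR84. Its LHS libraries were the lowest of the 8 and its CTRL libraries the highest. The fall in LHS was −2.10 (SE 0.24, adjusted p = 8.19e-05), and LHSR12 was at −1.12 against CTRL (adjusted p = 0.0054). BASL reads for each POLAR read numbered 1.015 and 1.63 in CTRL, 3.28 and 5.32 in LHS, 2.81 and 3.39 in LHSR12, and 2.09 and 1.56 in LHSR84.

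TMM (AT1G80080, chr1:30127819-30129649, minus strand), a leucine-rich repeat receptor-like protein with no kinase domain, had 458 and 463 scaled reads in CTRL, 214 and 276 in LHS, 393 and 482 in LHSR12, and 392.2 and 475 in LHSR84. The heated libraries were apart from the other 6, whose groups overlapped. It fell by 0.92 on the log2 scale in LHS (SE 0.17, adjusted p = 0.0016) and rose by 0.84 in the next 12 h (SE 0.17, adjusted p = 0.00302). Of the receptor kinases that work with TMM, ERECTA had 2717 and 2527 scaled reads in CTRL, 1162 and 1177 in LHS, 1214 and 1347 in LHSR12, and 2011 and 2271 in LHSR84. ERECTA fell in LHS (−1.16, SE 0.11, adjusted p = 2.40e-05) and, unlike TMM, was still low after 12 h (−1.03 against CTRL, adjusted p = 0.000112). ERL2 rose in LHS (0.61, adjusted p = 0.00252), and ERL1 was at 0.05 (95% interval −0.40 to 0.49) and did not pass. ERECTA and ERL2 thus moved in opposite directions at the end of heat.

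SDD1 (AT1G04110, chr1:1061297-1063809, minus strand, 1 exon), the subtilisin-like protease, had 257 and 234 scaled reads in CTRL, 11.02 and 22.3 in LHS, 461 and 637 in LHSR12, and 219.8 and 237 in LHSR84. The LHS libraries were far below all others and the LHSR12 libraries above all others, while LHSR84 and CTRL overlapped. The fall in LHS was −3.88 on the log2 scale (SE 0.31, adjusted p = 1.12e-05), the largest change of any of the 10 genes against CTRL. The rise over the next 12 h was 5.02 (SE 0.31, adjusted p = 4.51e-06). SDD1 was then 1.141 above CTRL (SE 0.31, adjusted p = 0.0167), and it fell again by 1.25 from 12 h to 84 h (adjusted p = 0.0146). The excess over CTRL at 12 h did not pass without CTRL replicate 2 (1.07, adjusted p = 0.0599), LHSR12 replicate 1 (1.37, adjusted p = 0.0501) or LHSR12 replicate 2 (0.91, adjusted p = 0.145). The later fall did not pass without any 1 of the LHSR12 or LHSR84 libraries (−1.48 to −1.013, adjusted p = 0.0542 to 0.131). SDD1 reads for each TMM read numbered 0.562 and 0.505 in CTRL, 0.0514 and 0.0809 in LHS, 1.17 and 1.32 in LHSR12, and 0.560 and 0.498 in LHSR84. The ratio was lowest in LHS and highest in LHSR12, and its LHSR84 values overlapped those of CTRL. Another subtilase gene in the stomatal lists, ATSBT5.2, had 341 and 281 scaled reads in CTRL, 162 and 100.4 in LHS, 661 and 941 in LHSR12, and 425 and 369 in LHSR84. It too fell in LHS (−1.27, adjusted p = 0.00216) and was above CTRL in LHSR12 (1.35, adjusted p = 0.00294).

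The genes of the 3 secreted peptides and of the protease SDD1 took different courses. The 250 bases before their annotated starts are shown so that these upstream regions can be compared. They are from the RefSeq TAIR10.1 genome, 5′ to 3′ on the gene's strand, with matches to the E-box CANNTG, the hexamer bound by bHLH factors, in capitals.
EPF1: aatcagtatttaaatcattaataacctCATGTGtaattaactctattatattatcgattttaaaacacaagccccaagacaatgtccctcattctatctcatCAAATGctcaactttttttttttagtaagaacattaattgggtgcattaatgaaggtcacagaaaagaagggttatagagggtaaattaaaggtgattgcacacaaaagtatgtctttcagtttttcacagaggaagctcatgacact
EPF2: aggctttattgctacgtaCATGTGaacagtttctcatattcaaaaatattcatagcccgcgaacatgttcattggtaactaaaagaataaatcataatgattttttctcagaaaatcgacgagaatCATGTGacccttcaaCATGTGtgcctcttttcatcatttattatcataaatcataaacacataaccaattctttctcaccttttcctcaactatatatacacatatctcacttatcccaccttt
STOMAGEN: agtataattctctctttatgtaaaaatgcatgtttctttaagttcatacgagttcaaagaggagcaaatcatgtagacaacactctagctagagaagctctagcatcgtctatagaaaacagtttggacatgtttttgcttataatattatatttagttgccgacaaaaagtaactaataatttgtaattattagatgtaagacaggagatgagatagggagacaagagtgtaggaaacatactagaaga
SDD1: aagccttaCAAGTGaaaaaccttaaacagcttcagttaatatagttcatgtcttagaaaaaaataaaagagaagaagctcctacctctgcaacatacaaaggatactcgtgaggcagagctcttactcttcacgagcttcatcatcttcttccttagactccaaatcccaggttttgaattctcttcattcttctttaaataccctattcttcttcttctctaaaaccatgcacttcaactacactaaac
These windows lie at chr2:8983815-8984064 (EPF1, minus strand), chr1:12472618-12472867 (EPF2, plus strand), chr4:7587100-7587349 (STOMAGEN, minus strand) and chr1:1063810-1064059 (SDD1, minus strand). EPF2 held 3 E-boxes, each reading CATGTG, EPF1 held 2 and SDD1 held 1, and the STOMAGEN window had no match. Over 27443 protein-coding genes, 55.3% of such windows had an E-box. The G-box CACGTG, itself an E-box and bound by PIF factors and HY5, stood in 6.49% of all windows. The heat shock element GAANNTTC stood in 9.55%. Both strands are read at once, since all 3 motifs are palindromes. Neither the G-box nor the heat shock element was found in the window of any of the 10 genes, which says only that these letters are not there.

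EPF2 (AT1G34245, chr1:12472868-12473974, plus strand), the peptide that limits entry into the lineage, had 179 and 209 scaled reads in CTRL, 123 and 158 in LHS, 65.9 and 85.8 in LHSR12, and 154 and 196 in LHSR84. It was lowest in LHSR12, not at the end of heat, and LHSR84 overlapped CTRL. The LHS difference from CTRL was −0.47 (95% interval −1.01 to 0.07, adjusted p = 0.111). In LHSR12 it was 1.35 below CTRL by size (log2 fold change −1.35, SE 0.24, adjusted p = 0.00194), a call kept under every alternative run. The fall from LHS to LHSR12 was −0.88 (adjusted p = 0.0106) and the rise from 12 h to 84 h was 1.20 (adjusted p = 0.00512). The first of these was lost without LHS replicate 2 (−0.70, adjusted p = 0.0856) or LHSR12 replicate 1 (−0.70, adjusted p = 0.0773). The second was lost without LHSR12 replicate 1 (1.008, adjusted p = 0.0518).

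EPF1 (AT2G20875, chr2:8982863-8983814, minus strand), which acts later to space stomata, had 25.7 and 19.3 scaled reads in CTRL, 9.01 and 5.07 in LHS, 42.1 and 32.5 in LHSR12, and 31.9 and 36.5 in LHSR84. The LHS libraries were lowest and both recovery groups lay above CTRL without overlap. These values rest on few reads, 19 and 18 in CTRL and 5 in LHS replicate 2. EPF1 fell in LHS (−1.58, SE 0.40, adjusted p = 0.00756) and rose in the first 12 h (2.29, SE 0.40, adjusted p = 0.00119). The excess over CTRL did not pass at 12 h (0.71, adjusted p = 0.19) or at 84 h (0.59, adjusted p = 0.4).

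STOMAGEN (AT4G12970, chr4:7585869-7587099, minus strand), the promoting peptide, had 182 and 255 scaled reads in CTRL, 88.1 and 126 in LHS, 308 and 331 in LHSR12, and 237 and 291 in LHSR84. LHS was lowest and LHSR12 highest, without overlap with any other group. STOMAGEN fell in LHS (−1.02, SE 0.24, adjusted p = 0.00458) and rose in the first 12 h (1.59, SE 0.24, adjusted p = 0.000456). The fall did not pass without LHS replicate 1 (−0.77, adjusted p = 0.0515). In LHSR12 the difference from CTRL was 0.57 (95% interval 0.03 to 1.11, adjusted p = 0.0825). It ran from 0.32 to 0.81, the latter without CTRL replicate 2, over the alternatives run. STOMAGEN is made in the mesophyll, and 4 of 5 mesophyll genes fell in LHS too, where 33.2% of all gene loci fell. They were CAB3 (−3.42), CA1 (−2.80), RBCS1A (−1.57) and GLK1 (−0.54). In LHSR12, 3 of the 5 were below CTRL and GLK1 was above it (0.76, adjusted p = 0.000549). The background there was 21.7% lower and 24.4% higher. GLK2 did not pass in LHS (−0.14) or in LHSR12 (0.40). The summed level of those 5 genes was 449909 to 494126 scaled reads in CTRL, 111966 to 135014 in LHS, 158715 to 167612 in LHSR12 and 403204 to 431901 in LHSR84, and none of them was at 0 in any library. RBCS1A gives most of that sum, and CAB3, a light-harvesting protein gene, went against it after 84 h (−5.18 against CTRL, adjusted p = 5.76e-05). The part of such shared changes in the values of STOMAGEN was not tested.

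STOMAGEN reads for each EPF2 read numbered 1.02 and 1.22 in CTRL, 0.715 and 0.795 in LHS, 4.67 and 3.86 in LHSR12, and 1.55 and 1.48 in LHSR84. The LHS libraries had the lowest ratios and the LHSR12 libraries the highest, and no group overlapped another. No p is given for the ratios, since an exact two-sided permutation test of 2 against 2 libraries cannot go below 0.333. EPF1 reads for each EPF2 read stood at 0.144 and 0.0923 in CTRL, 0.0732 and 0.0321 in LHS, 0.640 and 0.378 in LHSR12, and 0.208 and 0.186 in LHSR84. So both the promoting peptide and the later inhibitor were high relative to EPF2 after 12 h.

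**Figure D2:**
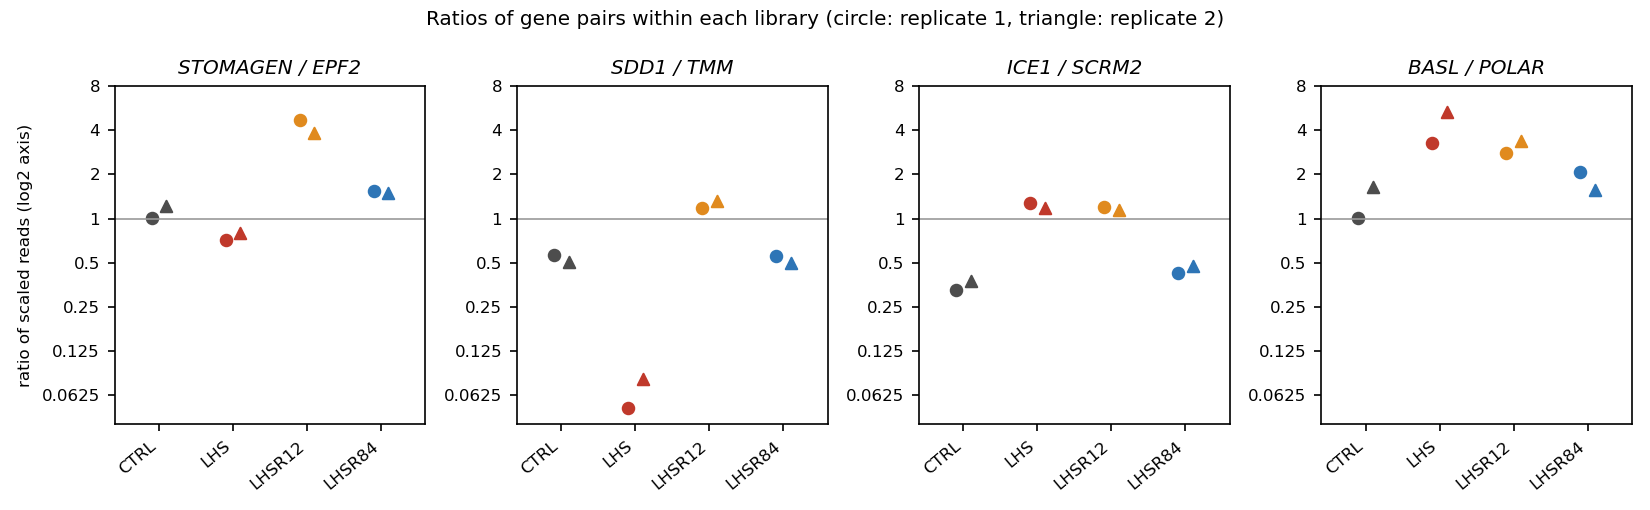
Ratio of scaled reads of 2 genes within each library (log2 axis) for STOMAGEN and EPF2, SDD1 and TMM, ICE1 and SCRM2, and BASL and POLAR, with 1 point for each library. The STOMAGEN to EPF2 ratio is 4.67 and 3.86 in LHSR12, and the SDD1 to TMM ratio is 0.0514 and 0.0809 in LHS.

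Per kilobase of annotated exon, the order of levels in CTRL was ICE1 (294 ± 6.81 scaled reads per kb, SD, n = 2), TMM (252 ± 2.15), EPF2 (234 ± 25.9), STOMAGEN (222 ± 53.0), SPCH (198 ± 22.3), BASL (193 ± 68.3), FAMA (187 ± 17.6), SDD1 (97.7 ± 6.62), MUTE (51.1 ± 35.7) and EPF1 (26.01 ± 5.25). The libraries of neighbours from TMM to FAMA overlapped in each case, as did those of MUTE and EPF1, so their order is not fixed by these data. In LHS, SDD1 was last of the 10 at 6.63 per kb. In LHSR12 it held place 4 at 219 per kb, and EPF2 had gone from place 3 to place 8, at 91.6 per kb. FAMA was first in LHSR84 at 296 per kb, next to ICE1 at 283. The libraries of these genes overlapped those of a neighbour in each case, SDD1 with EPF1 in LHS and with TMM and BASL in LHSR12, EPF2 with MUTE in LHSR12 and FAMA with ICE1 in LHSR84.

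Likeness of course over the 8 libraries was measured as the root-mean-square difference of log2 values, each gene centred on its own mean. Among the 10 genes, the smallest value was that of SPCH and TMM (0.21), followed by ICE1 and BASL (0.25). The largest was that of EPF2 and SDD1 (2.11). Among 9869 gene loci with a symbol, the closest to SPCH was GATA20 (0.08), the closest to TMM was MBD6 (0.08), and the closest to EPF2 was ATK1 (0.09). For FAMA it was RPS4 (0.12), for STOMAGEN SDH3-1 (0.15) and for EPF1 ADT6 (0.19). For SDD1 they were ARPN (0.32) and UGT73D1 (0.35). This measure grows with the spread of the gene itself, and the SD of the log2 values over the 8 libraries was 2.04 for SDD1 against 0.40 for FAMA, so it does not rank matches of different genes. The same limits the pairs among the 10, since the SD of ICE1 was 0.21, below its value with BASL. ARPN had 121 and 103 scaled reads in CTRL, 7.01 and 12.2 in LHS, 288 and 224 in LHSR12, and 81.5 and 94.7 in LHSR84.

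**Figure D3:**
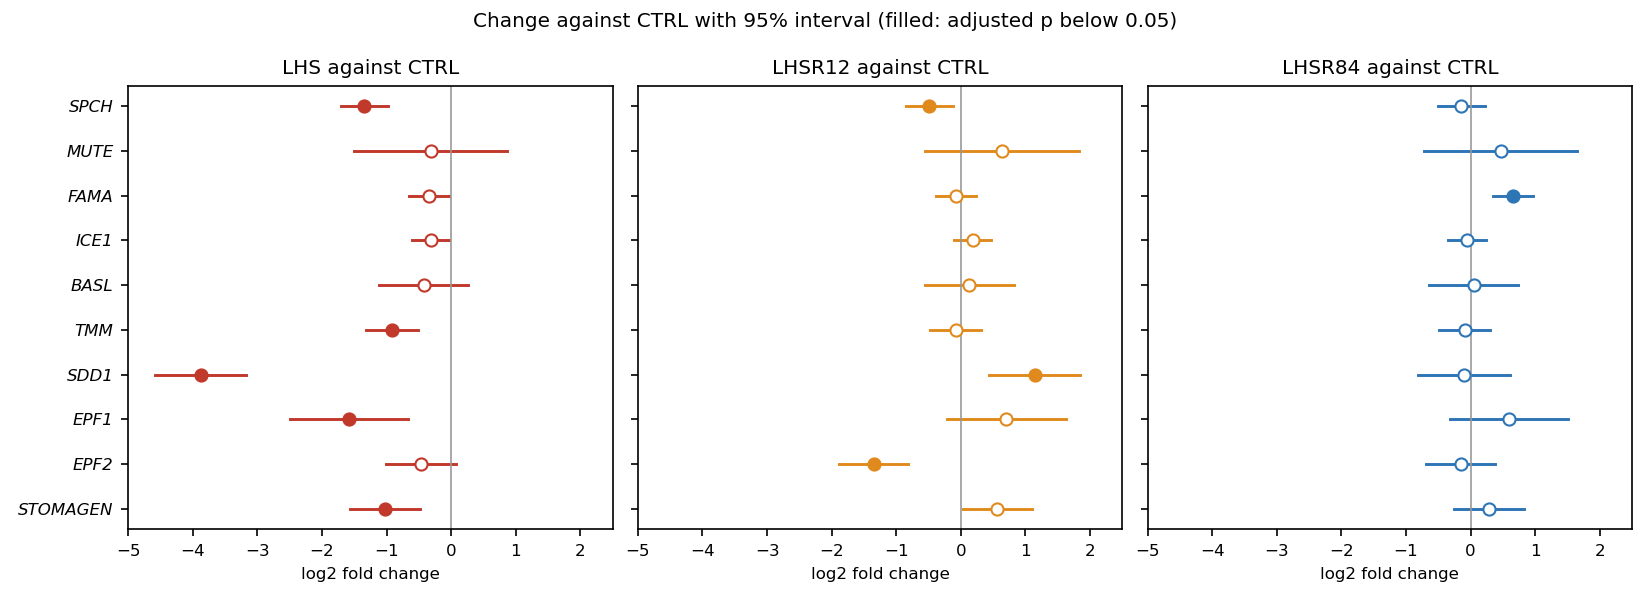
Log2 fold change of each gene against CTRL (horizontal axis) with its 95% interval, in LHS, LHSR12 and LHSR84, and a filled point where the adjusted p is below 0.05. All 10 points lie left of 0 in LHS, and after 84 h FAMA at 0.66 is the filled point.

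Around these 10 genes, 29 further genes of stomatal development were listed and all were tested. In LHS 14 of them fell and 2 rose, ERL2 and the co-receptor kinase gene SERK1 (0.45, adjusted p = 0.0187), with a median of −0.42. Of all gene loci, 33.2% fell and 34.8% rose. The largest falls were in CHAL, an EPF-like peptide gene (−2.34, adjusted p = 0.000363), SCRM2 and POLAR. FLP, the MYB factor that ends guard mother cell division, fell from 950 and 962 scaled reads in CTRL to 266 and 328 in LHS. EPFL4 passed as lower on values of 3.004 and 1.014 scaled reads in LHS. The kinase YDA, the entry of the MAP kinase cascade, was at 0.04 (95% interval −0.17 to 0.25) and did not pass. MPK3, lower in that cascade and also a defence kinase, fell in LHS (−1.45, adjusted p = 4.22e-05).

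In LHSR12, 10 of the 29 were lower than in CTRL and 2 higher, with a median of −0.29, against 21.7% and 24.4% of all gene loci. The lower ones included SCRM2, POLAR and ERECTA, and the higher ones were ATSBT5.2 and the MAP kinase kinase gene MKK4 (0.86, adjusted p = 0.00182). From LHS to LHSR12, 12 rose and 5 fell, against 32.3% and 31.6%. Besides ATSBT5.2 (2.62) and EPFL4, the largest rise was in MPK3 (1.61). The largest falls were in SERK1 (−1.21), SOL1 (−0.98) and BAK1 (−0.70). After 84 h, MPK3 passed as higher than CTRL (1.03, adjusted p = 0.00283), and it was the 1 gene called of the 29, where 8.94% of gene loci were higher. From 12 h to 84 h, 8 rose, led by SCRM2 (1.1403), FLP (0.88) and MPK3 (0.87), and 2 fell, ATSBT5.2 (−0.99) and ERL2 (−0.60), against 17.9% and 19.3% of gene loci.

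Genes of mature guard cells, the end product of the lineage, moved both ways. Of 17, 7 fell and 3 rose in LHS, with a median of −0.24, where 33.2% of gene loci fell and 34.8% rose. GORK, the outward potassium channel, rose (2.02, adjusted p = 8.44e-06), as did the kinase OST1 of abscisic acid signalling (1.07) and the inward channel KAT1 (0.41). The largest falls were in PHOT1, a blue light receptor (−2.38), the carbonic anhydrase gene BCA4 (−2.03) and the myrosinase gene TGG1 (−1.77). Several of these genes are also expressed outside guard cells. In LHSR12, 9 were lower and 6 higher than in CTRL, with a median of −0.61, where 21.7% of gene loci were lower and 24.4% higher. Lower were AT1G22690 (−2.85), TGG1 (−1.90), PHOT1 (−1.25), SCAP1 (−0.97), SLAC1 (−0.78), KAT2 (−0.76), MYB60 (−0.63), ALMT12 (−0.58) and BCA4 (−0.54). Higher were GORK (1.36), OST1 (0.91), PHOT2 (0.56), KAT1 (0.54), AHA1 (0.42) and AT5G06970 (0.39). SCAP1, SLAC1, KAT2, MYB60 and ALMT12 had not passed in LHS, and each rose from 12 h to 84 h. After 84 h, 3 were higher and 2 lower, against 8.94% and 5.32% of gene loci. TGG1, a gene expressed in guard cells and myrosin cells, stood at 48074 and 43835 scaled reads against 25353 and 20800 in CTRL (1.00, adjusted p = 0.00338), AHA1 was at 0.72 and PHOT2 at 0.66. AT5G06970 (−0.75) and PHOT1 (−0.51) were lower. From 12 h to 84 h, 10 of the 17 rose and 3 fell, against 17.9% and 19.3% of gene loci. From LHS to LHSR12, 5 rose and 6 fell, shares near those of all gene loci (32.3% and 31.6%). The level of the 17 summed, to which TGG1 and the pump gene AHA1 add most, was 66080 to 73812 scaled reads in CTRL, 36598 to 38086 in LHS, 51154 to 53157 in LHSR12 and 98693 to 106116 in LHSR84. No gene of the list was at 0 in any library.

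Genes of the epidermis that the lineage arises from were lower in heat and at 12 h. The counts below stand beside these shares of all gene loci. Against CTRL, 33.2% fell and 34.8% rose in LHS, and 21.7% were lower and 24.4% higher in LHSR12. From LHS to LHSR12, 32.3% rose and 31.6% fell, and from 12 h to 84 h, 17.9% rose and 19.3% fell. Of 6 epidermal genes 5 fell in LHS, with a median of −1.64, among them PDF2 (−2.06), ATML1 (−1.79) and PDF1 (−1.68), and 5 were lower in LHSR12, with a median of −0.85. All 4 genes of trichomes, another epidermal cell type, fell in LHS, with GL2 at −2.10 and GL3 at −2.67, and GL1 went from 108 and 126 scaled reads in CTRL to 1.001 and 4.06 in LHS. All 6 genes of cell division fell in LHS (median −1.59) and were lower in LHSR12 (median −2.19), with CDC20.1 at −2.85 and KNOLLE, a cytokinesis syntaxin, at −2.27 after 12 h. From 12 h to 84 h all 6 rose, with CDC20.1 at 2.37. From LHS to LHSR12 the division genes did not move together, and the median was −0.06. CDC20.1 (−2.34) and CDKB2;1 (−0.66) fell, CYCB1;1 rose (0.61, adjusted p = 0.00977), and KNOLLE, HIK and MAD2 did not pass. After 84 h, ATML1 was 0.49 below CTRL by size (log2 fold change −0.49, adjusted p = 0.0234). The summed epidermal level was 35428 to 37643 scaled reads in CTRL, 14837 to 18518 in LHS, 23107 to 23392 in LHSR12 and 32592 to 35080.1 in LHSR84, and no epidermal, trichome or division gene was at 0. The part of these changes in the values of the 10 genes was not tested. Of 3 vascular genes 2 fell in LHS, with SUC2, the phloem sucrose transporter, at −2.20. Of the 4 meristem genes tested, 2 fell and 1 rose in LHS, and 2 were above CTRL and 1 below in LHSR12. KNAT1 (−1.52) and AS1 (−0.96) fell in LHS. WUS was called higher there (2.51), on a mean of 5.05 scaled reads against 0 in CTRL. In LHSR12, KNAT1 (0.67) and STM (0.73) were above CTRL and AS1 (−0.70) was below. STM was also above CTRL in LHSR84 (0.85). WUS and CLV3 were at 0 in some libraries.

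**Figure D4:**
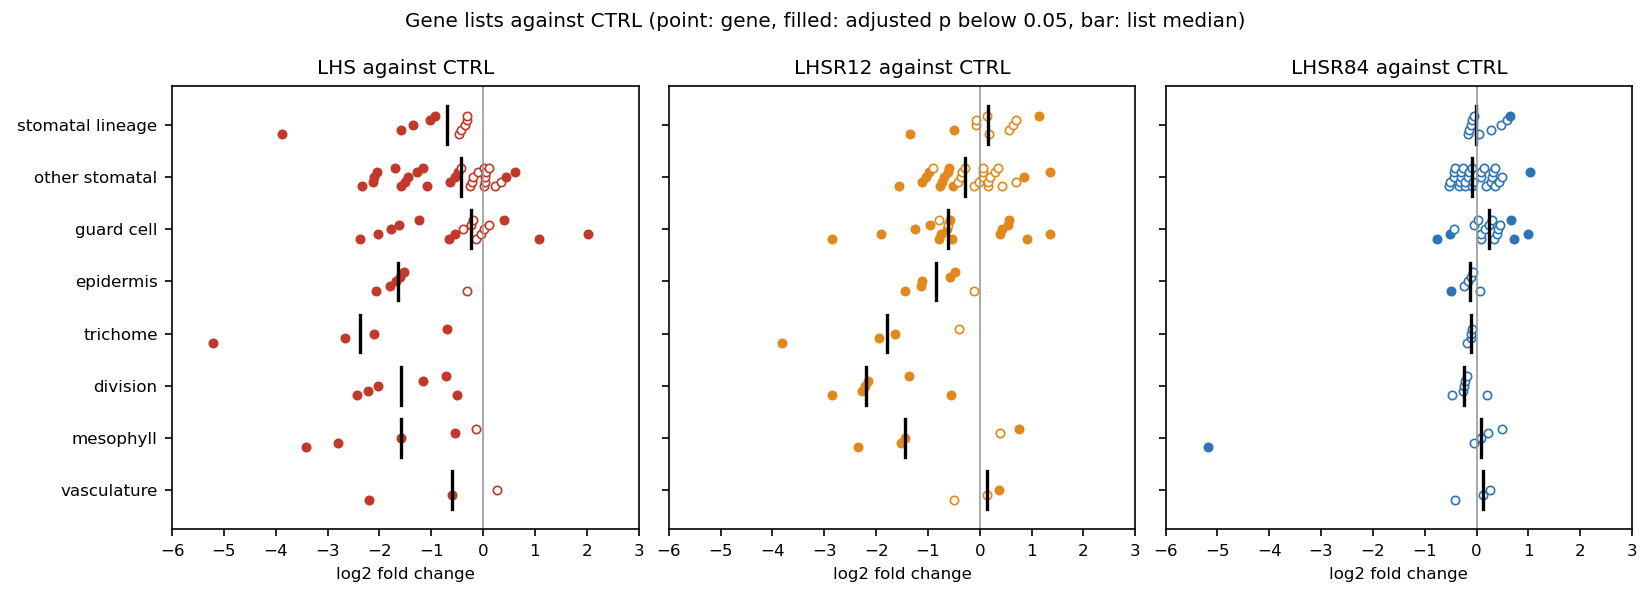
Log2 fold change against CTRL (horizontal axis) of each gene in 8 lists, with a filled point where the adjusted p is below 0.05 and a bar at the list median. In LHS the medians are −0.69 for the stomatal lineage genes, −1.64 for the epidermal genes and −1.59 for the division genes, and after 84 h the medians lie between −0.24 and 0.24.

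Of the factors by which light and temperature act on stomatal development, PIF4 had 2556 and 1669 scaled reads in CTRL, 92.1 and 81.1 in LHS, 896 and 565 in LHSR12, and 68.5 and 46.4 in LHSR84. It was low in LHS and again in LHSR84. It was called lower than CTRL in each of the 3 comparisons (−4.56, −1.54 and −5.17, adjusted p = 3.25e-06, 0.00296 and 3.88e-05). The part of PIF4 in the values of SPCH was not tested. HY5, a light-signalling factor known to raise STOMAGEN expression, was at −0.04 in LHS (95% interval −0.43 to 0.36) and at 0.56 in LHSR84 (adjusted p = 0.0697), and it rose from 12 h to 84 h (0.76, adjusted p = 0.00998). HSP90.1, a chaperone gene induced by heat, rose from 297 and 827 scaled reads in CTRL to 180193 and 235823 in LHS (8.70, adjusted p = 6.96e-07), and it was still above CTRL after 84 h (2.68, adjusted p = 0.0033).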

How the data were processed

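RNA was measured in 8 libraries, 2 in each of 4 groups, from total RNA made into strand-specific libraries, per the labels' protocols. The submitters' processing notes give the build TAIR10 and, without roles, DESeq2 1.14.1, HTSeq 0.9.1, STAR 2.5.3a and CASAVA. Whether counting used the strand is not given in the sources used here. In TAIR10.1 no annotated gene overlaps any of the 10 genes on either strand. The deposited table by the authors holds a signal for each locus: read counts divided by 1 factor for each library, as seen from 1 step per library that divides 100% of its values to a whole number (tolerance 0.001). That step gave back reads in 7 libraries. It is within 0.5% of 1 in LHS replicate 1, for which reads are not given.

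Tests were run with limma 3.58.1 (limma-trend, not robust; R 4.3.3) on log2(value + 1). Loci with a mean of at least 1 were tested, 27638 in all and 24624 of them gene loci. All 8 libraries entered a single fit, and 5 comparisons were contrasts of it. P-values are two-sided and adjusted over all loci. The test was checked on simulated counts with the same dispersion at every locus. That check cannot show how calls hold at the spread of these libraries. Counting limits the genes with few reads, such as EPF1 and MUTE.

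The members and lists were chosen with earlier results of these data known. Of 93 list genes, 89 carry their listed name in the TAIR10.1 annotation, matched by locus. The other 4 genes go by the annotation's symbol or their locus. The rule for named genes was all 10 members, up to 3 called risers and 3 called fallers of each other list in each comparison, and 9 genes fixed by name. Some genes that met it are not described, among them ATHB8, HSP90.2, PHYB, COP1, CRY1, FDH, CER5 and BLUS1. FLP, MPK3, EPFL4 and ATSBT5.2 in LHS against CTRL lie outside that rule and were chosen after their values were seen. So were GLK1 in LHS, GLK2, and in LHSR12 the guard cell genes SCAP1, SLAC1, KAT2, MYB60, ALMT12, BCA4, KAT1, AHA1 and AT5G06970. Upstream windows and ratios within a library were likewise chosen after the values were seen.

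Alternatives were a pseudocount of 0.1, no filter, a minimum mean of 5, an adjusted p of 0.01, a further 2-fold minimum, a fit of only 2 groups, a replicate block, TMM scaling, edgeR 4.0.16 and DESeq2 1.42.0 on the recovered reads of 7 libraries, and each library left out. No scaling moved the median of all gene loci by over 0.1 on the log2 scale. Other loci of the table are not analysed here.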

Additional observations from a re-analysis of the deposited data

How the results depend on the processing

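Under an adjusted p of 0.01, the number of the 10 genes called became 1 in LHSR12 against CTRL (3 in the main analysis) and 0 in LHSR84 against CTRL (1), guard cell genes 9 in LHSR12 against CTRL (15) and 7 in LHSR12 against LHS (11). With a 2-fold minimum the 10 genes gave 0 in LHSR84 against CTRL and 3 in LHSR12 against LHS (7). Other stomatal genes then gave 4 in LHSR12 against CTRL (12), 8 in LHSR12 against LHS (17) and 1 in LHSR84 against LHSR12 (10). Guard cell genes gave 4, 0, 5 and 8 in LHSR12 and LHSR84 against CTRL, LHSR12 against LHS (11) and LHSR84 against LHSR12 (13). With only the 2 groups compared, LHSR84 against CTRL gave 0 of each list. The spread is then estimated from fewer libraries, and the cause was not tested. In the limma fit of all libraries, 1, 8 and 8 of the 3 lists had an unadjusted p below 0.05 in that comparison, and edgeR called 1, 1 and 4 and DESeq2 1, 1 and 5. TMM scaling gave 2 other stomatal genes in LHSR84 against CTRL. Other cases were within 1.5 times the main count.

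With each library left out, the 10 genes gave 4 to 6 calls in LHS against CTRL, 1 to 3 in LHSR12 against CTRL, 0 to 1 in LHSR84 against CTRL and 1 to 3 in LHSR84 against LHSR12. Other stomatal genes gave 1 to 3 in LHSR84 against CTRL. Guard cell genes gave 9 to 15, 3 to 6, 6 to 11 and 7 to 13 in LHSR12 and LHSR84 against CTRL, LHSR12 against LHS and LHSR84 against LHSR12. Signs changed for differences that had not passed. For MUTE these ran from −1.08 to 0.44 (LHS against CTRL), −0.12 to 1.4003 (LHSR12 against CTRL), −0.30 to 1.23 (LHSR84 against CTRL) and −0.36 to 0.0094 (LHSR84 against LHSR12). They ran from −0.17 to 0.017 for FAMA in LHSR12 against CTRL and −0.18 to 0.069 for ICE1 in LHSR84 against CTRL. For TMM they were −0.23 to 0.065 (LHSR12 against CTRL), −0.23 to 0.045 (LHSR84 against CTRL) and −0.16 to 0.14 (LHSR84 against LHSR12), the last also positive at 0.025 (TMM scaling), 0.033 (edgeR) and 0.00098 (DESeq2). For EPF1 in LHSR84 against LHSR12 they were −0.30 to 0.069, for EPF2 in LHSR84 against CTRL −0.33 to 0.021, and for BASL −0.23 to 0.50, −0.32 to 0.42 and −0.33 to 0.16 in LHSR12 and LHSR84 against CTRL and LHSR84 against LHSR12. The cause was not tested.

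Over the loci as a whole, replicate numbers showed no pairing: differences between replicates 1 and 2 correlated between groups at −0.06 to 0.04. SPCH, ICE1, TMM, EPF2, STOMAGEN and BASL were nonetheless higher in replicate 2 than in replicate 1 in all 4 groups. MUTE, FAMA, EPF1 and SDD1 went both ways. Whether the members share an offset between replicates was not tested. With the replicate block, 6, 4, 1, 8 and 3 of the 10 genes were called in the 5 comparisons, against 5, 3, 1, 7 and 3 without it. The genes gained were ICE1 in LHS against CTRL (adjusted p = 0.0372), STOMAGEN in LHSR12 against CTRL (adjusted p = 0.0327) and BASL in LHSR12 against LHS (adjusted p = 0.0386).

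Calls on single genes were also lost with DESeq2 for SPCH in LHSR12 against CTRL (−0.50) and ICE1 in LHSR12 against LHS (0.44). DESeq2 was run without LHS replicate 1, so for ICE1 method and left-out library cannot be told apart. With only the 2 groups compared, calls were lost for SPCH in LHSR12 against CTRL (0.0931), FAMA in LHSR84 against CTRL (0.137) and STOMAGEN in LHS against CTRL (0.0527). Each is an adjusted p of limma.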
